A study of Salmo salar with 37 samples.

Results

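The 5 genes described here belong to the interferon-induced antiviral effectors, and they were followed in the testis of Atlantic salmon (Salmo salar) males that received a restricted ration (RR) or a normal ration (NR). Each gene is 1 probe of a one-color oligonucleotide array with 43689 probes, of which 40684 were tested. Of these probes, 4 were given by name, namely the interferon-induced protein IFI44 (probe CUST_24186_PI417904088), interferon-induced protein with tetratricopeptide repeats 1-like (IFIT1-like, CUST_1339_PI417904088), interferon-induced GTP-binding protein Mx (Mx, CUST_22674_PI417904088) and the helicase HELZ2, described on the array as a PPAR-A-interacting complex protein (CUST_20586_PI417904088). The other probe, ATP-dependent RNA helicase DDX58 (CUST_17312_PI417904088), was the only 1 whose description in the study's gene lists contains DDX58. The members were chosen from the study's own lists by their measured difference between rations. All 5 probes had been listed by the study for a difference between RR and NR males, IFI44 and IFIT1-like in its comparison of all males as well as among immature or maturing males, and Mx, HELZ2 and DDX58 among immature males. Their differences between the rations are therefore given as a description, without a test.

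Interferons are secreted when a cell detects viral nucleic acid, and they switch on a common set of genes in the receiving cells through transcription factors of the IRF family and others. DDX58, also called RIG-I, is a cytoplasmic sensor of viral RNA that starts the signal. Mx is a dynamin-like GTPase that blocks the replication of RNA viruses in fish and mammals, and IFIT proteins bind foreign RNA in mammals. IFI44 is a cytoplasmic protein known mainly as a marker of the interferon response, and HELZ2 is a helicase described in mammals as a coactivator of nuclear receptors and as interferon-inducible. In a testis, such transcripts can come from germ cells, somatic cells, vessels or resident blood cells. In a bulk sample, fewer cells of a type and less RNA per cell cannot be told apart.

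Testis RNA of 21 RR and 16 NR males was hybridized, 1 male per array. All fish were in their first sea winter and had shared 1 sea cage before the trial. The NR fish were fed to appetite every day and the RR fish on 3 days a week, each ration in a sea cage of its own, so that ration and cage cannot be told apart. Testes with spermatogenesis beyond the first type of spermatogonia had been left out of the arrays. Sample titles gave the ration here, because the ration field of the labels reads normal for each of the 37 males. The names of the array files add a status token (HKT or LKT) and a sampling date, and their ration token equalled the title in 37 of 37 males. The sources used here do not spell out the status tokens, and they are used as they stand. Together they form 7 groups: 5 RR LKT and 5 NR LKT males of 1 December, 4 RR LKT, 5 NR HKT and 6 NR LKT males of 5 January, and 5 RR HKT and 7 RR LKT males of 26 January. The p-values measure the spread between fish of 1 cage per ration.

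Between 34084 and 43287 probes were well above background per RR male and between 34857 and 41394 per NR male. The arrays lay on 11 slides scanned on 2 days. All males of 1 December were scanned on day 2, and all NR males of 5 January on day 1, so that date and scan day cannot be told apart in NR males. Each of the 5 probes exceeded background clearly in all 37 males and was never saturated. The Mx spot of RR male 1 was marked as an outlier by the scanner software and was treated as missing. IFIT1-like was the dimmest, with a median processed intensity of 208 in RR and 106 in NR males before normalization, and its difference between the rations was 0.41 with another background correction (normexp), below the fold threshold. Markers of the tissue were limited to both probes for 3 beta-hydroxysteroid dehydrogenase, a steroidogenic enzyme, and both exceeded background clearly in all 37 males. No probe carried a description from the lists of germ cell or leukocyte markers, so that their levels are not given here. The salmon reference holds 3 genes named ifi44, ifi44b or ifi44g and 2 named mx or mx2, and the files do not tell which copy the IFI44 and Mx probes match.

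All 5 genes were higher in RR than in NR testes, by 0.62 to 0.87 on the log2 scale over all males. Levels are log2 quantile-normalized signals. IFI44 averaged 11.27 ± 0.41 in the 21 RR males, against 10.40 ± 0.58 in the 16 NR males (mean ± SD), and differed by 0.87 (standard error 0.16). Its RR values lay between 10.76 and 12.07 (median 11.11) and its NR values between 9.10 and 11.17 (median 10.45), so that all 21 RR males lay above the NR median and 10 of them above every NR male. DDX58 had RR values between 10.29 and 12.02 (median 11.35) and NR values between 9.96 and 11.07 (median 10.42), and 15 of 21 RR males exceeded every NR male, the largest number among the 5 genes. Its difference was 0.76 (standard error 0.13).

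HELZ2 spread more widely, with RR values between 9.49 and 11.32 (median 10.70) and NR values between 8.92 and 10.70 (median 9.62). Its difference of 0.84 (standard error 0.18) carried the largest error of the 5 genes, and 10 of 21 RR males lay above every NR male. Mx ranged between 11.70 and 13.07 (median 12.68) in 20 RR males and between 11.35 and 12.59 (median 11.95) in NR males, a difference of 0.62 (standard error 0.12). IFIT1-like lay between 6.95 and 8.44 (median 7.59) in RR males and between 6.44 and 7.45 (median 6.87) in NR males, with a difference of 0.73 (standard error 0.13) and all 21 RR males above the NR median. Thus the ranges of both rations overlapped for each gene, while at least 18 RR males lay above the NR median. By the study's thresholds (limma, Benjamini-Hochberg adjusted p below 0.01 and fold change above 1.5) all 5 genes were differentially expressed, against 0.256% of the probes tested (0.0885% higher and 0.167% lower in RR males). The genes were chosen for this difference, and nothing is read from the share. With scan day in the model the differences were 0.65 to 0.76 and 0 of the 5 passed the thresholds. When each male was left out in turn, HELZ2 passed in 14 of 37 analyses, Mx in 36 and the other 3 genes in all 37, and HELZ2 did not pass with slide as a random block.

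**Figure D1:**
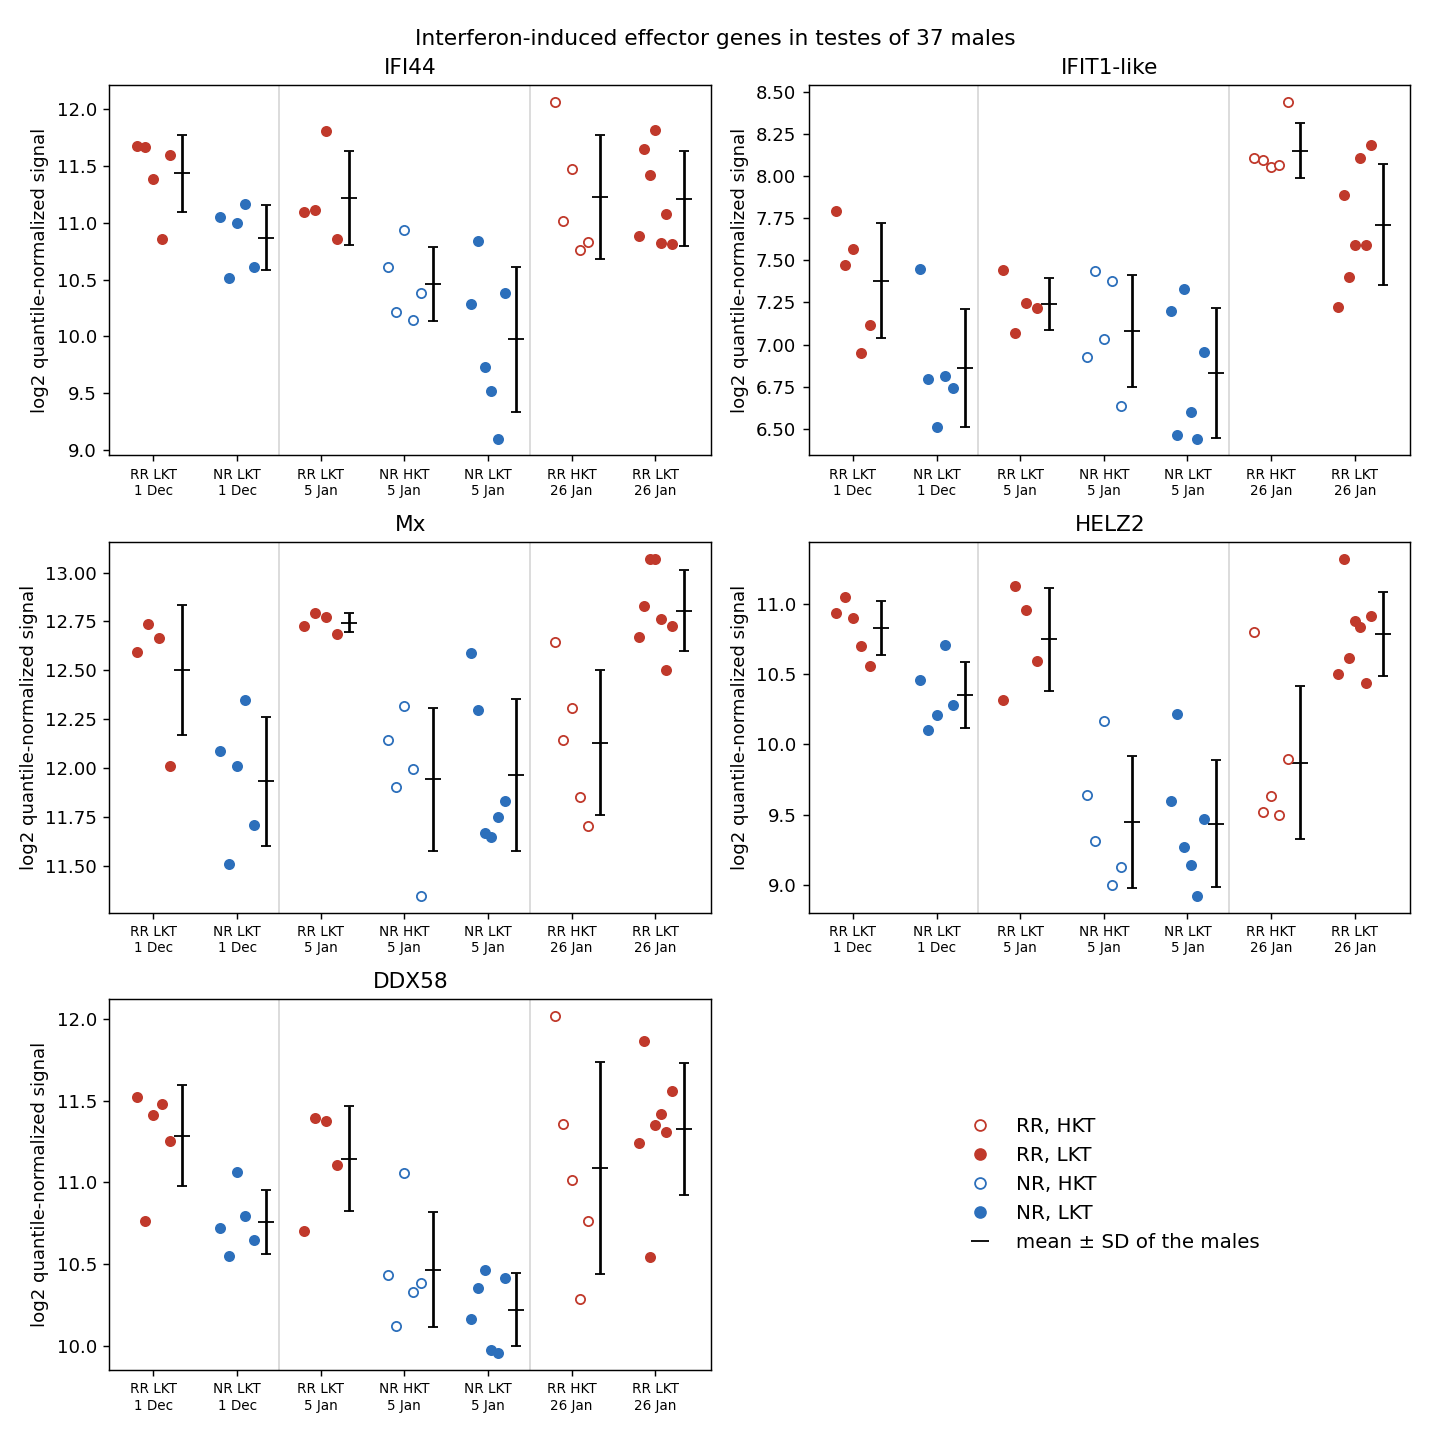
Log2 quantile-normalized signal of the 5 genes (vertical axes) in each male, by ration, status token and sampling date (horizontal axes); RR in red, NR in blue, HKT open, LKT filled, with the mean ± SD of each group in black. The RR LKT males of 26 January lie between 10.44 and 11.32 for HELZ2, while 4 of the 5 RR HKT males of the same date lie between 9.49 and 9.89.

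At 1 date and 1 status, the higher level in RR males was seen for each gene at both dates on which it could be compared. The genes were chosen for differences between the rations, and these LKT males were open to that selection. Nothing is therefore read from the same direction at both dates. Among the LKT males of 1 December, all scanned on the same day, the difference was 0.57 for IFI44, 0.52 for IFIT1-like, 0.57 for Mx, 0.48 for HELZ2 and 0.53 for DDX58 on the log2 scale, with standard errors between 0.20 and 0.28. The ranges of RR and NR males overlapped for all 5. DDX58, for example, read 11.52, 10.77, 11.41, 11.48 and 11.25 in the RR males and 10.72, 10.55, 11.07, 10.80 and 10.65 in the NR males. All but 1 of these RR males exceeded each NR male.

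Among the LKT males of 5 January, the differences were 1.24 for IFI44, 1.31 for HELZ2, 0.92 for DDX58, 0.78 for Mx and 0.41 for IFIT1-like. HELZ2 read 10.31, 11.13, 10.96 and 10.59 in the 4 RR males, against 8.92 to 10.22 (median 9.37) in the 6 NR males. The ranges did not overlap for IFI44, Mx, HELZ2 and DDX58, whereas those of IFIT1-like did. The share of all probes without overlap was not computed. Since the genes were chosen for differences between the rations, nothing is read from this separation. IFI44 read 11.10, 11.11, 11.81 and 10.85 in the RR males and 10.28, 10.84, 9.73, 9.52, 9.10 and 10.38 in the NR males, where the highest, NR male 7, stood next to the lowest RR male. The 4 RR males lay within a narrow range for Mx (12.72, 12.79, 12.78 and 12.68), while the NR males reached from 11.65 to 12.59 (median 11.79). No probe of the array passed the thresholds at either date (0% of 40684; limma, with 2509 and 4533 probes at an unadjusted p below 0.05).

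The difference between rations was thus numerically larger on 5 January than on 1 December for 4 of the 5 genes, by 0.84 for HELZ2, 0.68 for IFI44, 0.39 for DDX58 and 0.21 for Mx, and smaller by 0.11 for IFIT1-like. None of these changes passed the thresholds, with an adjusted p of 0.932 for HELZ2 and at least 0.936 for the other 4 (limma with Benjamini-Hochberg adjustment). These values are adjusted over all probes tested. Before adjustment, the 95% interval of the change was wholly positive for HELZ2 (0.15 to 1.53). The intervals of the other 4 genes held both negative and positive values. The genes were chosen for differences between the rations, and LKT males were open to that selection. No test is therefore read from these values. Within scan day 1 the RR males exceeded the NR males on average by 1.13 for IFI44, 1.04 for HELZ2, 0.80 for DDX58, 0.75 for Mx and 0.52 for IFIT1-like. Within scan day 2 the values were 0.38, 0.25, 0.51, 0.57 and 0.86 for the same genes in the same order. IFI44 and HELZ2 had thus smaller differences on day 2 than on day 1 and IFIT1-like had a larger one, and these differences between days were not tested. The NR males of day 2 were all from 1 December and those of day 1 all from 5 January. These values also pool HKT and LKT males. Day 2 held 4 RR HKT males and 0 NR HKT males, and day 1 held 1 and 5. Scan day, date and status therefore cannot be told apart in them.

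Most of the red blood cell probes in the study's lists were lower in RR males. Of 8 probes for hemoglobins and other erythroid genes, 5 were called lower in RR males and 0 higher, against 0.167% and 0.0885% of all probes. A difference above 0 was seen in 2 of the 8 (0.05 for a hemoglobin subunit alpha probe and 0.17 for the erythrocyte membrane protein, neither called). All 8 were named because the study had listed them on these same males, so that nothing is read from the count. Their summed linear signal lay between 129398 and 740252 (median 287471) in RR and between 352928 and 744792 (median 557237) in NR males. The part of blood in the levels of the 5 interferon genes was not tested.

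The order of the groups was not the same for all genes. Since the genes were chosen for differences between the rations, nothing is read from RR groups that lay above NR groups. IFI44 and DDX58 had all 4 RR groups above all 3 NR groups, with means from 11.21 to 11.44 in RR and from 9.97 to 10.87 in NR groups for IFI44, and from 11.09 to 11.33 in RR and from 10.22 to 10.76 in NR groups for DDX58. Mx and IFIT1-like also had every RR group above every NR group. In HELZ2, the RR HKT males of 26 January (mean 9.87) fell below the NR LKT males of 1 December (mean 10.35). Neighbours in these orders mostly differed by less than the SD of the males. The gap was larger than the pooled SD of both groups at 1 step for IFI44 (NR LKT of 1 December over NR HKT of 5 January), 1 for IFIT1-like (RR HKT over RR LKT of 26 January), 1 for DDX58 (NR LKT of 1 December over NR HKT of 5 January), and 2 each for Mx and HELZ2. The groups accounted for 59.6% to 74.0% of the sum of squares of the 5 genes over all males.

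By status, 2 of the 5 genes passed the thresholds between HKT and LKT males of the restricted ration on 26 January, and both were lower in HKT males. These 2 genes, HELZ2 and Mx, had been listed by the study for a difference between rations among immature males. The LKT males were open to that selection, so that no test is read from the adjusted p of either gene. HELZ2 read 10.80, 9.52, 9.64, 9.49 and 9.89 in the 5 RR HKT males, against 10.44 to 11.32 (median 10.84) in the 7 RR LKT males. Of the HKT males, 4 of 5 lay below every LKT male, and RR male 17 lay within the LKT range. HELZ2 fell by 0.92 on the log2 scale (standard error 0.22, adjusted p = 0.000983, limma with Benjamini-Hochberg adjustment), to 9.87 ± 0.54 in HKT males, against 10.79 ± 0.30 in LKT males (SD, n = 5 and 7). Mx read 12.64, 12.14, 12.31, 11.85 and 11.70 in the HKT males and between 12.50 and 13.07 (median 12.76) in the LKT males, where again all HKT males but RR male 17 lay below the LKT males. It fell by 0.67 (standard error 0.18, adjusted p = 0.00318).

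The other 3 genes did not pass the thresholds in the same comparison. These 3 had also been listed by the study for differences between rations. Males of this comparison were open to that selection, so that no test is read from the intervals or adjusted p of these genes. IFIT1-like read 8.11, 8.09, 8.05, 8.06 and 8.44 in the HKT males, its highest group mean, and between 7.23 and 8.19 (median 7.59) in the LKT males, a difference of 0.44 (95% interval 0.06 to 0.82, adjusted p = 0.0544). DDX58 read 12.02, 11.36, 11.02, 10.29 and 10.76 in the HKT males against 10.54 to 11.87 (median 11.35) in the LKT males, a difference of -0.24 (95% interval -0.68 to 0.20, adjusted p = 0.393). The HKT males covered more than the whole range of the LKT males here. IFI44 read 12.07, 11.01, 11.47, 10.76 and 10.83 in the HKT males and between 10.81 and 11.81 (median 11.08) in the LKT males, a difference of 0.01 (95% interval -0.50 to 0.53, adjusted p = 0.970). RR male 17 had the highest level of its group for IFI44, Mx, HELZ2 and DDX58.

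These 2 calls stand in a comparison with many. Of the probes tested, 23.1% were called between HKT and LKT males of the restricted ration, 5337 higher and 4069 lower in HKT males, or 13.1% and 10% of the probes. With each array scaled to its 75th percentile in place of quantile normalization, the split was 4602 higher and 5370 lower, and the median of all probes moved to -0.23, against -0.02 after quantile normalization. Under that scaling HELZ2 remained called, at -0.95 or 0.72 below the median of all probes, whereas Mx was at -0.45 (adjusted p = 0.0475) and was no longer called. Mx was also not called without RR male 20 (adjusted p = 0.0122) or without RR male 21 (adjusted p = 0.0181). The LKT males of this comparison were open to the study's selection of Mx, HELZ2 and DDX58 for a high level in RR males, so that a lower level in HKT males is not independent of that selection. Both probes for 3 beta-hydroxysteroid dehydrogenase were higher in the same HKT males, by 1.25 (adjusted p = 4.51e-05) and 1.42 (adjusted p = 0.0014). Of the erythroid probes, 2 of 8 were higher and 0 lower, with a summed signal between 238817 and 345042 in HKT males and between 145909 and 431425 in LKT males. The steroidogenic and erythroid probes were likewise named from the study's lists of these same males. The part of a changed mix of cells in the lower levels of HELZ2 and Mx was not tested.

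In the normal ration none of the 5 genes passed the thresholds between HKT and LKT males. Males of this comparison, too, were open to the study's selection of the 5 genes, so that no test is read from the adjusted p. On 5 January, HELZ2 read 9.64, 9.31, 10.17, 9.0 and 9.13 in NR HKT males and between 8.92 and 10.22 (median 9.37) in NR LKT males, a difference of 0.01 (95% interval -0.45 to 0.48, adjusted p = 0.996). Mx differed by -0.02 (95% interval -0.41 to 0.36, adjusted p = 0.995), IFIT1-like by 0.25 (adjusted p = 0.703) and DDX58 by 0.24 (adjusted p = 0.794). IFI44 read 10.61, 10.22, 10.94, 10.14 and 10.38 in the HKT males, against 9.10 to 10.84 in the LKT males, a difference of 0.49 with an interval that reached 0 (95% interval -0.05 to 1.02, adjusted p = 0.481). All 5 genes overlapped between HKT and LKT males, and 0.0197% of all probes were called. The status difference of HELZ2 in RR males minus that in NR males was -0.93 (standard error 0.32), and that of Mx was -0.65 (standard error 0.26). Both genes had been selected for a higher level in RR than in NR males among immature fish, and LKT males of both rations enter this contrast, so that the values are a description without a test. The NR males of this contrast were sampled on 5 January and the RR males on 26 January, so that ration and date cannot be told apart in it.

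**Figure D2:**
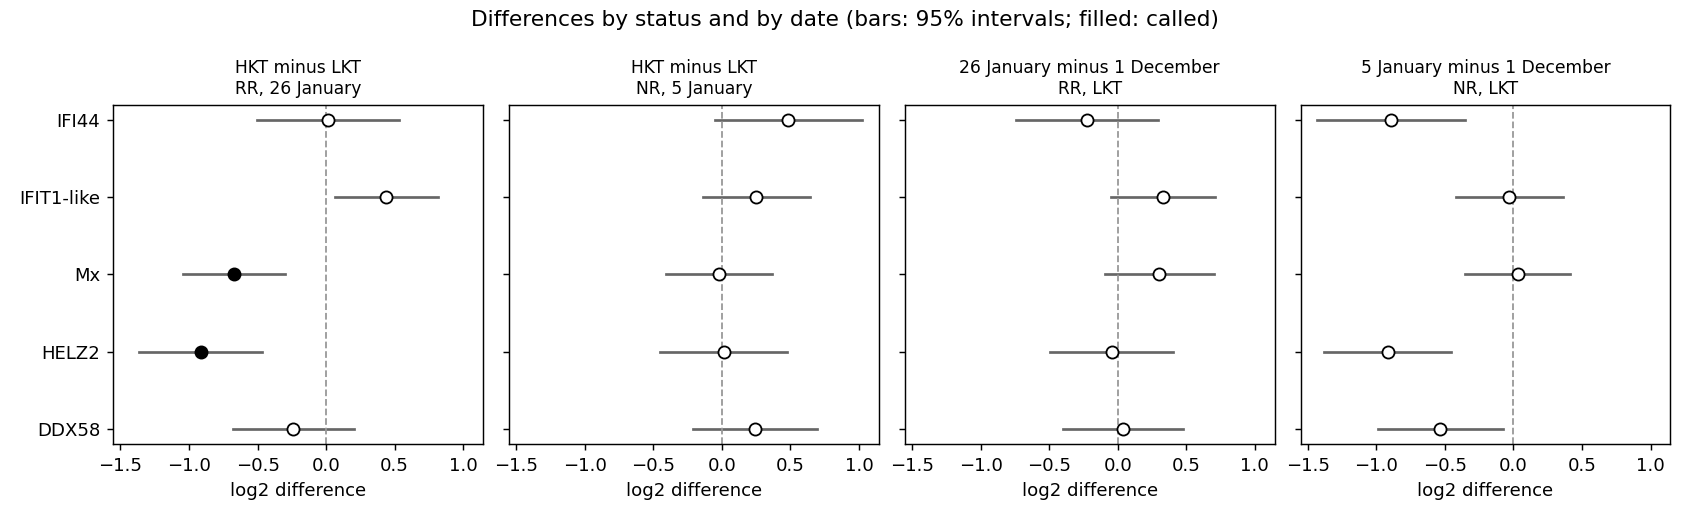
Log2 differences of the 5 genes (horizontal axes) between HKT and LKT males of 1 ration and date and between 2 dates of 1 ration in LKT males; bars are 95% intervals from limma and filled points passed the thresholds. HELZ2 (-0.92) and Mx (-0.67) are filled in RR males of 26 January, and IFI44 (-0.89) and HELZ2 (-0.92) lie lowest between the dates in NR males.

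Between dates, no gene changed past the thresholds. The LKT males compared were open to the study's selection of the 5 genes, so that no test is read from the adjusted p. Among RR LKT males, 26 January differed from 1 December by -0.22 for IFI44, 0.33 for IFIT1-like, 0.30 for Mx, -0.04 for HELZ2 and 0.04 for DDX58, with adjusted p between 0.238 and 0.919 (limma), where 0.0959% of the probes were called (0.0369% higher and 0.059% lower on 26 January). HELZ2 stayed within a narrow band in these fish, with 10.93, 11.05, 10.90, 10.70 and 10.56 on 1 December, 10.31, 11.13, 10.96 and 10.59 on 5 January and 10.44 to 11.32 (median 10.84) on 26 January. Its means were 10.83 ± 0.20, 10.75 ± 0.37 and 10.79 ± 0.30 (SD, n = 5, 4 and 7) on the 3 dates.

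Among NR LKT males, 5 January lay below 1 December for 3 of the genes, although none passed the thresholds. HELZ2 read between 8.92 and 10.22 (median 9.37) on 5 January, against 10.46, 10.10, 10.21, 10.70 and 10.28 on 1 December, a difference of -0.92 (standard error 0.23, adjusted p = 0.0313). IFI44 differed by -0.89 (standard error 0.26, adjusted p = 0.0612) and DDX58 by -0.53 (standard error 0.22, adjusted p = 0.188). DDX58 was the only 1 of the 5 whose ranges did not overlap, with 9.96 to 10.47 (median 10.26) on 5 January and 10.55 to 11.07 on 1 December. The share of all probes without overlap was not computed. Mx differed by 0.03 (95% interval -0.35 to 0.42) and IFIT1-like by -0.03 (95% interval -0.42 to 0.36). Of all probes 0.0197% were called (0.00492% higher and 0.0147% lower on 5 January). The 2 dates were scanned on different days in these males. With scan day in the model, HELZ2 differed by -0.65 (standard error 0.31) and IFI44 by -1.10 (standard error 0.37), both with an adjusted p of 0.766 (limma). DDX58 differed by -0.41 (standard error 0.31). The scan day term rests on RR males, since no NR group was scanned on both days, so that it does not separate date from scan day here. HELZ2, IFI44 and DDX58 had been listed by the study for differences between rations. These NR LKT males were open to that selection, so that no test is read from the adjusted p of the 3 genes.

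From male to male, 5 of the 10 pairs of genes correlated, namely IFI44, Mx and HELZ2 with each other and DDX58 with HELZ2 and, less firmly, with IFI44. No pair with IFIT1-like passed, nor did Mx with DDX58. Correlations were computed over the males after the mean of each of the 7 groups had been subtracted, for all 10 pairs of genes, with p-values from permuting males within groups and adjusted over the 10 pairs. The r values given within scan days keep group means over both days. With group means and permutations within 1 day, 4 pairs had an adjusted p below 0.05 on day 1 and 0 on day 2. On day 2 the r of the 5 pairs then lay between 0.41 and 0.70. IFI44 and HELZ2 were the closest pair, with r = 0.73 and rho = 0.64 (n = 37, permutation p = 2e-05 for r and 0.00014 for rho, adjusted p = 0.0002 and 0.0009). Without the 2 males farthest from the median of IFI44, r was 0.62. It was 0.58 within RR and 0.88 within NR males, and 0.82 and 0.66 within scan days 1 and 2. Among 40683 other probes, HELZ2 ranked 5 by its r with IFI44, and IFI44 ranked 26 by its r with HELZ2. In the remaining correlated pairs the partners ranked between 52 and 992, so that many other probes followed these genes more closely.

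Mx followed HELZ2 with r = 0.62 and rho = 0.62 (n = 36, permutation p = 0.00041 and 0.00027, adjusted p = 0.0015 and 0.0009) and IFI44 with r = 0.59 and rho = 0.64 (n = 36, permutation p = 0.00079 and 0.0002, adjusted p = 0.00197 and 0.0009). Without the 2 farthest males, r was 0.63 and 0.51, and within scan days 1 and 2 it was 0.64 and 0.62 for the pair with HELZ2 and 0.62 and 0.57 for the pair with IFI44. DDX58 followed HELZ2 with r = 0.62 and rho = 0.54 (n = 37, permutation p = 0.00045 and 0.00188, adjusted p = 0.0015 and 0.0047), with r = 0.53 without the 2 farthest males and 0.73 and 0.59 within the scan days. With IFI44 its r was 0.44 and its rho 0.41 (n = 37, permutation p = 0.0159 and 0.0245, adjusted p = 0.0319 and 0.0489), and r was 0.33 without the 2 farthest males and 0.60 and 0.39 within the scan days. This pair was no longer below an adjusted p of 0.05 in 7 of 37 analyses that each left out 1 male, with r at its lowest (0.30) without RR male 17. Mx and DDX58 correlated with r = 0.33 and rho = 0.33 (n = 36, permutation p = 0.0751 and 0.0716, adjusted p = 0.125 and 0.119), which did not pass.

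IFIT1-like gave r = 0.01 with IFI44, 0.11 with Mx, 0.13 with HELZ2 and 0.08 with DDX58, with rho between 0.06 and 0.25 and no permutation p below 0.151 (n = 36 or 37, adjusted p at least 0.216). Its r with these genes within the scan days lay between -0.05 and 0.29. By its r with IFI44 it ranked 21397 of 40683 probes, near the middle of the array. Its difference between the rations over all males was 0.73, against 0.62 to 0.87 for the other genes. For the mean of the ration differences of LKT males on 1 December and 5 January it was 0.47, against 0.68 to 0.91. Its highest group means were those of 26 January, a date without NR males. The genes were chosen for differences between the rations, so that nothing is read from these values.

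**Figure D3:**
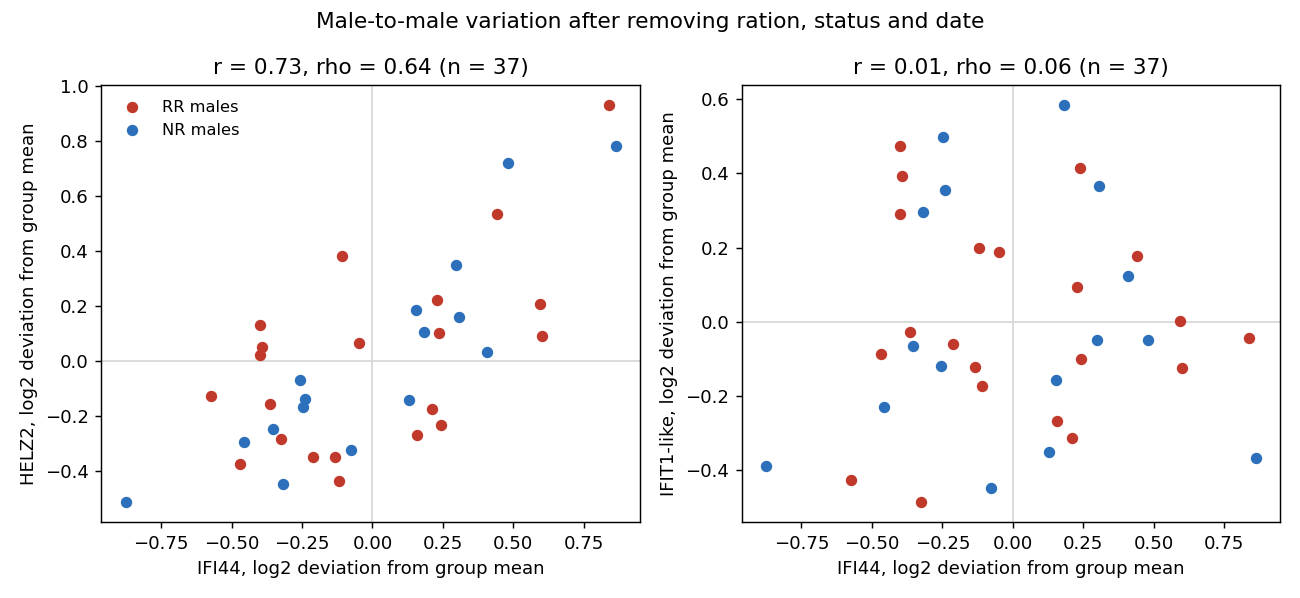
Log2 deviation of HELZ2 (left) and of IFIT1-like (right) from the mean of its ration, status and date group against that of IFI44, 1 point per male (37 males; RR in red, NR in blue). HELZ2 rises with IFI44 (r = 0.73), whereas IFIT1-like shows no trend (r = 0.01).

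The probes that varied most like the mean of the 5 genes were ranked among the 1946 other tested probes that carry a description. The closest was a probe for a TCDD-inducible PARP-like protein (CUST_25702_PI417904088), a member of a family of ADP-ribosyl transferases, with r = 0.79 over 37 males. It was followed by zinc-binding protein A33 of the tripartite motif family (r = 0.75), interferon regulatory factor 3 (IRF3, CUST_18686_PI417904088, r = 0.68), a transcription factor that switches on interferon genes, and sacsin (r = 0.68). Tripartite motif-containing protein 16 came next by 1 probe (r = 0.65) and again lower in the order by another (r = 0.53). Phosphofurin acidic cluster sorting protein 1 (r = 0.58), cytokine-like protein 1 (r = 0.55), ubiquitin-like modifier-activating enzyme 1 X (r = 0.55) and tripartite motif-containing protein 25 (TRIM25, r = 0.53), a ubiquitin ligase that acts on DDX58 in mammals, completed the first 10. Most of the closest probes had no description, since only 5 of the first 100 were described, and the highest r of any probe was 0.89.

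Apart from the 5 genes, 14 other probes of the interferon pathway list were described, all of them named because the study had listed them on these same males. Sacsin and the PARP-like probe, described only by a protein domain, are among them. The part of these probes in an interferon response was not tested. Between RR and NR males, 3 of the 14 were called higher and 0 lower, where 0.0885% of all probes were called higher and 0.167% lower, and the median difference was 0.27, against -0.02 over all probes. The 3 were both probes for IRF3 (0.88 and 0.70) and TRIM25 (0.73). Of the 14 differences 11 were above 0. The 14 were named from the study's lists of these same males, so that nothing is read from these counts or the median. Interferon regulatory factor 7 (IRF7) differed by 0.33, STAT2 by 0.30, the RNA sensor IFIH1 (also MDA5) by 0.21, the double-stranded RNA-activated kinase PKR by 0.10 and the Ifi-6-16 family probe by -0.13, none of them called. Toll-like receptor 9, a sensor of DNA, had the lowest value (-0.94) and was not called.

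By status in RR males of 26 January, the 14 other pathway probes split into 4 called higher and 3 called lower, in a comparison where 13.1% of all probes were called higher and 10% lower. Called higher in HKT males were PARP15 by 1.38 (adjusted p = 6.64e-05), PKR by 1.2 (adjusted p = 1.58e-10), the Ifi-6-16 family probe by 0.98 (adjusted p = 1.7e-05) and SAMD9, an antiviral factor in mammals, by 0.95 (adjusted p = 0.00257). Called lower were sacsin, which fell by 1.30 (adjusted p = 4.12e-05), TRIM25, which fell by 0.88 (adjusted p = 1.52e-05), and the PARP-like probe CUST_25702_PI417904088, which fell by 0.76 (adjusted p = 0.00139). The other 7 were not called, among them IFIH1 at 0.54 with an adjusted p of 0.000139 but below the fold threshold, STAT2 at 0.32 and both IRF3 probes at 0.05 and -0.37. The median of the 14 was 0.34, against -0.02 over all probes. The study's lists from which the 14 were named include its comparison of maturing with immature males. Nothing is therefore read from their counts or median against all probes. The 3 lower probes were among the first 10 by their correlation with the 5 genes, and the 4 higher ones had an r between -0.28 and 0.35 with the mean of the 5 genes. IRF3 (CUST_18686_PI417904088, r = 0.68), also among the first 10, differed by 0.05 and was not called. Status differences of the rest of the first 10 are not given here. The mean of the 5 genes includes HELZ2 and Mx, so that nothing is read from this split. In NR males of 5 January, none of the 14 was called between HKT and LKT males (limma), and their median was 0.18, against -0.02 over all probes.

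**Figure D4:**
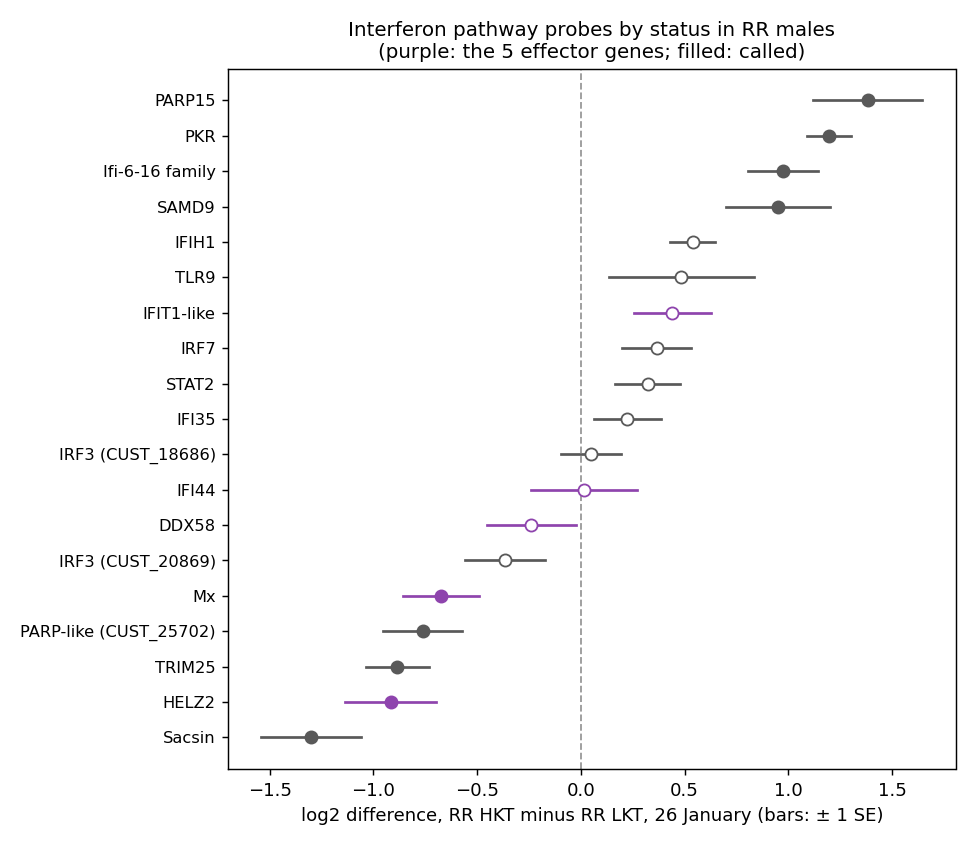
Log2 difference between RR HKT and RR LKT males of 26 January (horizontal axis) for the 5 effector genes (purple) and 14 other probes of the interferon pathway list (grey). Bars are ± 1 standard error, and filled points passed the thresholds. HELZ2 and Mx stand at the lower end with sacsin, TRIM25 and the PARP-like probe, while PARP15, PKR, the Ifi-6-16 family probe and SAMD9 stand at the upper end.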

How the data were processed

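The authors deposited the linear spot intensity of each array as read by Agilent Feature Extraction 10.7.1.1, according to the submitters' processing notes, with flags and background-corrected (processed) signals. They also deposited a table of log2 values, which equalled log2 of the background-subtracted intensity within 1e-06 for 1589471 of 1589471 values and was used only as an alternative. Control spots were left out, 581 outlier spots were treated as missing, and the processed signals were brought to log2 and quantile normalized, as in the study's methods, with limma 3.58.1 under R 4.3.3. A probe was kept if at least 16 males had it well above background. Signals were fitted with lmFit and eBayes, with ration as the only term or with 1 mean for each of the 7 ration, status and date groups, which share 1 estimate of the spread. Calls needed a fold change above 1.5 together with an adjusted p (Benjamini-Hochberg) below 0.01. The number of arrays limits the precision. Gene descriptions come from the study's lists of probes. The members and lists were chosen with earlier results of these data known. An item of the pathway list is not reported here. The named genes are the members, the pathway list and the 10 described probes closest to the members' mean. Correlation p-values used 100000 permutations of the males within groups. Alternatives were the scaling, the background correction, the deposited table, the filter, slide and scan day as blocks, the replicate number as a block, the methods' t-test, the threshold and leaving out each male. Within scan day values, kept outlier spots and the correlation p-values were added after the data had been seen. The files hold no mean spot signal, so that the normexp alternative used the median signal (offset 50).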

Additional observations from a re-analysis of the deposited data

Results flagged for a closer look

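IFIT1-like stood at 8.44 in RR male 21, far from the other 4 RR HKT males of 26 January, which lay between 8.05 and 8.11. It was the only such male in 35 sets of 4 to 7 males that were looked at (5 genes in 7 groups), where about 1 in 20 sets is picked out by chance. Without this male, the difference between HKT and LKT males was 0.37 (adjusted p = 0.147, limma). IFIT1-like had been listed by the study for a difference between rations on these males, so that no test is read from this value.

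The status difference of HELZ2 in RR males minus that in NR males was -0.93, which was picked out for its size against the spread between males. HELZ2 had been selected for a higher level in RR than in NR males among immature fish, and LKT males of both rations enter the contrast, so that no test is read from it. The rations were also sampled on different dates, and ration and date cannot be told apart.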

How the results depend on the processing

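Over all males, 104 probes were called between RR and NR males. The count was 9 with scan day as a block, 206 at an adjusted p below 0.05, and 0 within either scan day (limma). It was 12 for the mean of the ration differences of LKT males on 1 December and on 5 January, and 0 at either date alone. The replicate numbers do not pair the males, since 6 of 16 pairs correlated above 0.1. As a block they gave 290 probes, over the 16 numbers found in both rations, which leaves out all 5 RR HKT males. Between 56 and 129 probes were called without 1 male. With 75th percentile scaling the counts became 29 for HKT against LKT in NR males (main 8) and 17 between dates in NR males (main 8). With scan day as a block, 156 were called between dates in RR males (main 39) and 0 in NR males. Leaving out 1 male gave 0 to 47 probes for HKT against LKT in NR males, 0 to 167 between dates in RR males, 0 to 8 between dates in NR males, and 0 to 1 between the rations on 5 January. The 5 genes stayed higher in RR males under each alternative, and over the settings other than leaving out 1 male IFI44 lay between 0.38 and 1.13, HELZ2 between 0.25 and 1.06, DDX58 between 0.51 and 0.80, Mx between 0.57 and 0.77, and IFIT1-like between 0.41 (normexp) and 0.86. The highest values of HELZ2, DDX58 and Mx came from the replicate block, without the RR HKT males. With 75th percentile scaling, the median of all probes between dates in RR males was 0.13, against -0.04. Of the 10 pairs of genes, 5 had an adjusted p below 0.05, 4 to 6 without 1 male, 4 within scan day 1 and 0 within scan day 2. The causes of these changes were not tested. Between RR and NR males HELZ2 was called in 14 of 37 analyses that left out 1 male. It kept its call between HKT and LKT males of the restricted ration under all 15 alternatives run, with adjusted p of at most 0.00534 (limma). That comparison was open to the selection of HELZ2, so that no test is read from it.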
